A study of Arabidopsis thaliana with 6 samples.

Results

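The genes of the mitotic machinery were followed in Arabidopsis thaliana ovules, in wild type and in the sgd mutant. They are 46 loci named one by one: A- and B-type cyclins, the CDKA and CDKB kinases, aurora kinases, and genes of the spindle, the spindle checkpoint, the phragmoplast and the cell plate. They were listed by gene identifier, but the list was drawn up with earlier results of these data known. All 46 are among the 30457 features of the deposited tables, and all 46 entered the fit, which held the 18100 features with a mean over the libraries of at least 1 FPKM, a count of fragments relative to the length of the gene and the size of the library. Whole ovules had been collected at stages FG1 to FG3, early in embryo sac growth, and poly(A) RNA was sequenced in 3 wild-type and 3 sgd libraries. Both genotypes carry the qrt1 background, in which the pollen of a meiosis stays joined. The design text gives about 6000 ovules, with no word on whether that is per library. Plants grew in a greenhouse with 16 h of light at 22 °C. The locus and allele behind sgd are not given in the sources used here, and the labels do not say that the libraries of a group come from separate plants. The p-values therefore reflect the spread among these libraries alone, which may be technical.

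A plant cell enters mitosis when cyclin-dependent kinases bind mitotic cyclins. Many of the genes needed then are transcribed together in late G2 phase by MYB3R proteins, which bind the M-phase-specific activator (MSA) element in their promoters. Aurora kinases and TPX2 build the spindle, the checkpoint proteins hold anaphase back until chromosomes are attached, and CDC20 then turns the anaphase-promoting complex on, which destroys the cyclins. Plant cells divide with a phragmoplast, a microtubule array that carries kinesins and guides vesicles to the growing cell plate, where the syntaxin KNOLLE and its partner KEULE fuse them. In young ovules cells divide this way in the integuments, the nucellus and the funiculus, while the nuclei of the early embryo sac divide without a cell plate, and whole ovules mix all of them. In such bulk samples fewer dividing cells and less RNA per cell cannot be told apart.

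The libraries differed in more than genotype. Depth, estimated from the steps of low FPKM values, was 25000000, 31900000 and 38900000 fragments in wild-type libraries 1 to 3 and 23600000, 13700000 and 12900000 in the sgd libraries of the same numbers. Each depth was fitted together with a fragment length, so neither was estimated apart from the other. The fitted lengths were 180, 200 and 250 bases in wild type and 180, 330 and 350 bases in sgd. Both libraries numbered 1 stood apart from the rest on the second principal component, which held 30.8% of the variance, against 58.6% on the first, which parted the genotypes. In these libraries a single locus, AT3G06355, took 8.33% and 5.93% of all summed FPKM, while no feature took over 1.03% in the others. Their summed FPKM was 528715 in wild type and 561173 in sgd, against 750410 to 796250 in the others. Median-ratio scaling, an alternative used below, divides them by 0.741 and 0.803 and the others by 1.06 to 1.21. The FPKM printed here and below are unscaled. Of 9 ovule markers 8 were tested, and ANT and BEL1 fell and none rose, while with the replicate block STK and ATS fell too and SHP1 rose (limma adjusted p = 0.00456, 0.0325 and 0.00874). The list had summed levels of 816 to 1526 FPKM in wild type and 582 to 1005 FPKM in sgd. The largest of them was at 341, 738 and 750.4 FPKM in wild type against 114, 314 and 280.3 FPKM in the mutant for STK, an ovule identity gene, with the libraries in the order of their numbers. SPL, an early ovule regulator also called NOZZLE, averaged 1.27 ± 0.12 FPKM (SD, n = 3) in wild type and was listed at 0 in sgd libraries 2 and 3. Of 10 pollen markers 7 could be tested and 5 rose in sgd. With the block GEX2 fell (limma adjusted p = 0.0472), and HAP2, outside the fit, averaged 1.16 ± 0.286 FPKM in wild type and 0.287 ± 0.17 FPKM in sgd (SD, n = 3). The pollen list had summed levels of 15.6 to 33.0 FPKM in wild type and 95.7 to 223 FPKM in sgd. Also outside the fit, MGH3 was higher in sgd, at 0.29, 0.06 and 0.11 FPKM in wild type against 0.86, 0.56 and 0.63 FPKM in the mutant. DUO1, a sperm lineage regulator that was not tested either, was listed at 0 in 1 wild-type and 1 sgd library. The summed levels of 5 leaf photosynthesis markers were 326 to 844 FPKM in wild type and 1307 to 1525 FPKM in sgd, where 2 of the 5 rose, RBCS1A and CAB4. LHCB2.1 and PSAD-1 had positive changes that did not pass, and LHCB1.1 went the other way, at -1.17 on the log2 scale (limma adjusted p = 0.208). Over all features 4.47% fell and 13.3% rose, and with the block 14.3% and 26.5%. The 4 tapetum markers summed to at most 0.70 FPKM in any library, and 6 endosperm and embryo markers to 0.40 to 0.74 FPKM in wild type and 1.75 to 4.60 FPKM in sgd. These marker lists move with the genotype beside each result on the mitotic genes, and their part in those results was not tested.

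Most of the mitotic genes were lower in sgd ovules, from the B-type cyclins to the phragmoplast kinesins, while CDKA;1, CDC20.2 and KEULE had positive changes and AUR3 and TES changes near 0. Of the 46, 18 fell, none rose and 28 did not pass (limma on log2(FPKM + 1), two-sided, Benjamini-Hochberg adjusted over 18100 features, threshold 0.05). Over all features, 4.47% fell and 13.3% rose by the same rule. The median change of the 46 genes was -1.03 in log2(FPKM + 1), taken as sgd minus wild type, while that of all features was 0.13. Relative to all features the genes thus lay at -1.15. All 3 sgd values lay below all 3 wild-type values for 36 of the 46 genes, against 8.8% of all features, and above them for 1 gene, KEULE, against 26.8%. At an unadjusted p under 0.05, 34 of the 46 were lower, against 8.82% of all features.

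The call of single genes depended on how the libraries were compared. With the replicate number as a block in the fit, 35 fell and 2 rose, against 14.3% and 26.5% of all features. With median-ratio scaling 39 fell and 1 rose, against 18.2% and 19.8%. With no filter on low values, 25168 features entered the fit and its correction, and 6 of the 46 were called fallen, against 2.85% of all features. Leaving out wild-type library 2 or 3 left 7 fallen genes each, against 2.1% and 2.25% of all features. Leaving out wild-type library 1 left 11, against 4.1%, and leaving out sgd library 2 raised the count to 28, against 5.68%. The direction of the 18 fallen genes was the same in all 19 alternative settings. CYCB1;4, AUR1, AUR2, TPX2, HIK and PLE were called fallen in every one of them. Scaling also moved the balance over all features: rises made up 74.8% of calls with the deposited values and 52.1% under median-ratio scaling. With equal totals the share was 61.1%, and quantile normalization gave 45.8%.

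**Figure D1:**
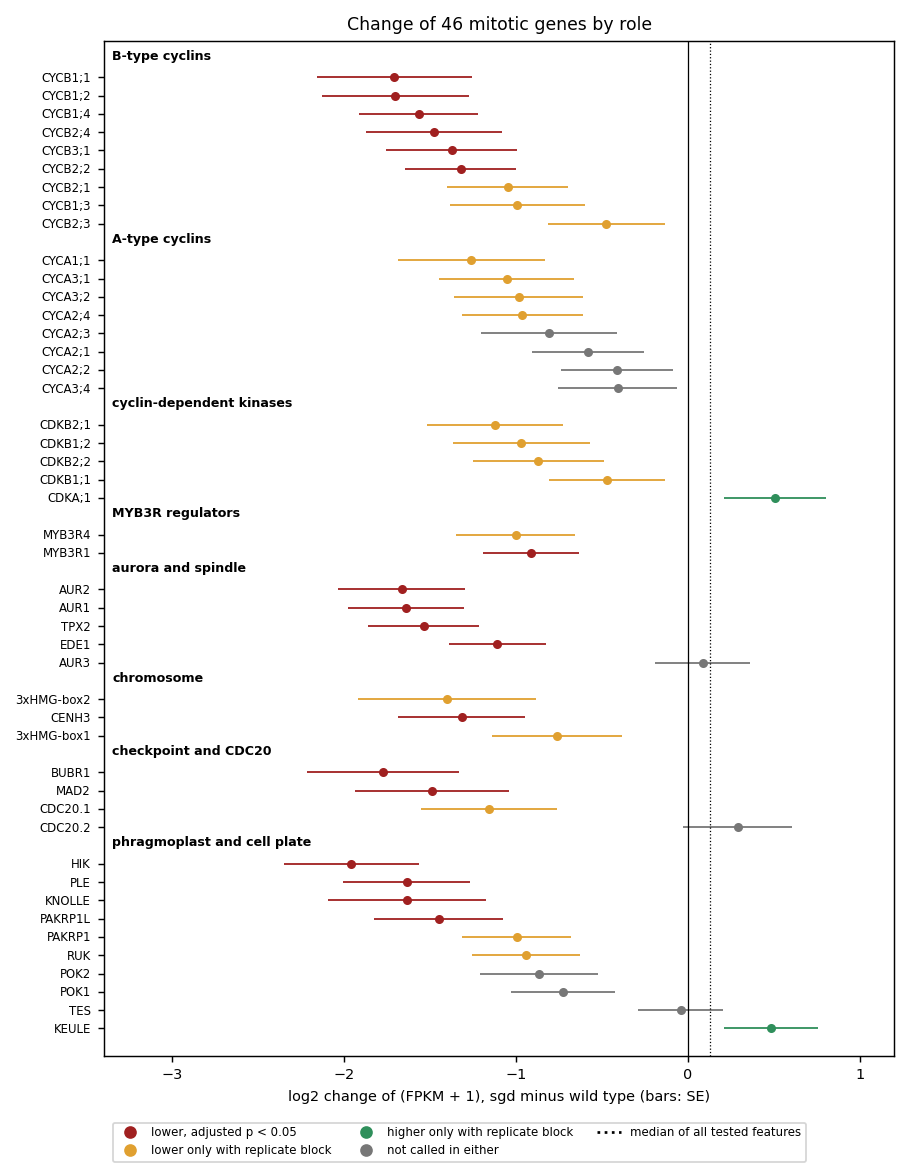
Log2 change of each of the 46 mitotic genes, as sgd minus wild type in log2(FPKM + 1), by role (points, with SE as bars, 3 libraries per genotype); colours give the call without and with the replicate block, and the dotted line is the median of all tested features. The points of 42 genes lie below 0, while AUR3, CDC20.2, KEULE and CDKA;1 lie above it.

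Promoters of 5 mitotic genes with clustered MSA cores are shown, with those of TES and CDKA;1, all picked by hand. Whether the cores have a part in the lower levels in sgd was not tested. The sequences are the 200 bases before the annotated gene start, read 5′ to 3′ on the gene's own strand from RefSeq assembly TAIR10.1, by that assembly's own annotation. The deposited tables carry no coordinates, and the submitters' processing notes name TAIR10. The MSA core searched was AACGG on either strand, so that CCGTT marks the reverse strand, and every match is in capitals. The windows are chr4:17624309-17624508 (minus strand) for CYCB1;1 (AT4G37490), chr5:1861704-1861903 (minus strand) for CYCB1;2 (AT5G06150), chr3:3627274-3627473 (minus strand) for CYCB1;3 (AT3G11520), chr4:16901396-16901595 (plus strand) for CYCB2;2 (AT4G35620), chr3:8518936-8519135 (plus strand) for PAKRP1L (AT3G23670), chr3:15190586-15190785 (plus strand) for TES (AT3G43210) and chr3:18071254-18071453 (plus strand) for CDKA;1 (AT3G48750). None of these windows overlaps another annotated gene. The first 5 belong to genes whose level was lower in every sgd library than in any wild-type library, though CYCB1;3 did not pass (limma adjusted p = 0.115). CYCB2;3, with 3 cores before its start and overlapping groups, is not printed. TES, with matches, had overlapping groups and a change near 0, and CDKA;1, without a match, had a positive change.
CYCB1;1: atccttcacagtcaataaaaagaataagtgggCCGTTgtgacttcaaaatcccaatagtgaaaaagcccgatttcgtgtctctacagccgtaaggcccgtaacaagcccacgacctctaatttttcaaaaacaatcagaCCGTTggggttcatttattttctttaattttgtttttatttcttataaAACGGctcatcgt
CYCB1;2: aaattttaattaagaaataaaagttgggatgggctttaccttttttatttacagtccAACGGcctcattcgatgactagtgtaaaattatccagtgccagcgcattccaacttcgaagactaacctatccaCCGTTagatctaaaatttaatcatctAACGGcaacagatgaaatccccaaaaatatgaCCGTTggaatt
CYCB1;3: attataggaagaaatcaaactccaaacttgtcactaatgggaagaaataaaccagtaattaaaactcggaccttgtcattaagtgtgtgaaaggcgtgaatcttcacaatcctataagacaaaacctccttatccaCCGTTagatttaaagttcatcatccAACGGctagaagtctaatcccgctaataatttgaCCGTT
CYCB2;2: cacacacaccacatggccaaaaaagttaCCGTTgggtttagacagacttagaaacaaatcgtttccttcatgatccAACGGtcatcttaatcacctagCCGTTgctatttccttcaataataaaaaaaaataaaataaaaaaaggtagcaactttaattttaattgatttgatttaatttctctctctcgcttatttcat
PAKRP1L: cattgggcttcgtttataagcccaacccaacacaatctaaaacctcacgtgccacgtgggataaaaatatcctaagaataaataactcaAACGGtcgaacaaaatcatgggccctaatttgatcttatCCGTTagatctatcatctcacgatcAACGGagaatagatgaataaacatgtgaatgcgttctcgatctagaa
TES: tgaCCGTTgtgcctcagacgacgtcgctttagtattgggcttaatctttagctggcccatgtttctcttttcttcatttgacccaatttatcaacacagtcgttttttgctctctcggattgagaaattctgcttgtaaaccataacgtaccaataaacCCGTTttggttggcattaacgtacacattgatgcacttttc
CDKA;1: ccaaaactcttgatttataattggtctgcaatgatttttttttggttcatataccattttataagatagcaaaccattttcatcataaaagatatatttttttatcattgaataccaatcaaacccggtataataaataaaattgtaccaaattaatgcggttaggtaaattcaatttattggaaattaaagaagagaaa
The core recurred in both orientations within single promoters: CYCB1;1 and CYCB1;3 each carried 3 matches in these bases, CYCB1;2 had 4, and PAKRP1L, a phragmoplast kinesin gene, had 3.

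Over the window from 250 bases before to 50 bases after the gene start, 29 of the 46 mitotic genes held at least 1 core and 17 held at least 2. Of all 27443 protein-coding genes, 24.7% held at least 1 and 4.89% at least 2, and among those in the fit the shares were 27.1% and 5.86%. By role, 8 of 9 B-type cyclin genes held a core and 7 held at least 2, against 3 of 8 A-type cyclin genes and 1 of 5 kinase genes. Of the 18 fallen genes 15 held a core, and of the 28 that did not pass 14 did. The longer form CNAACGG, which contains the core, was present in 15 of the 46 and in 5.52% of all protein-coding genes. BUBR1, among the largest falls, and CYCB2;4 held no core in this window, while CYCB2;3 with 3 cores did not pass and TES with 2 did not either. A match to these letters is a description of the sequence and not a binding site.

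**Figure D2:**
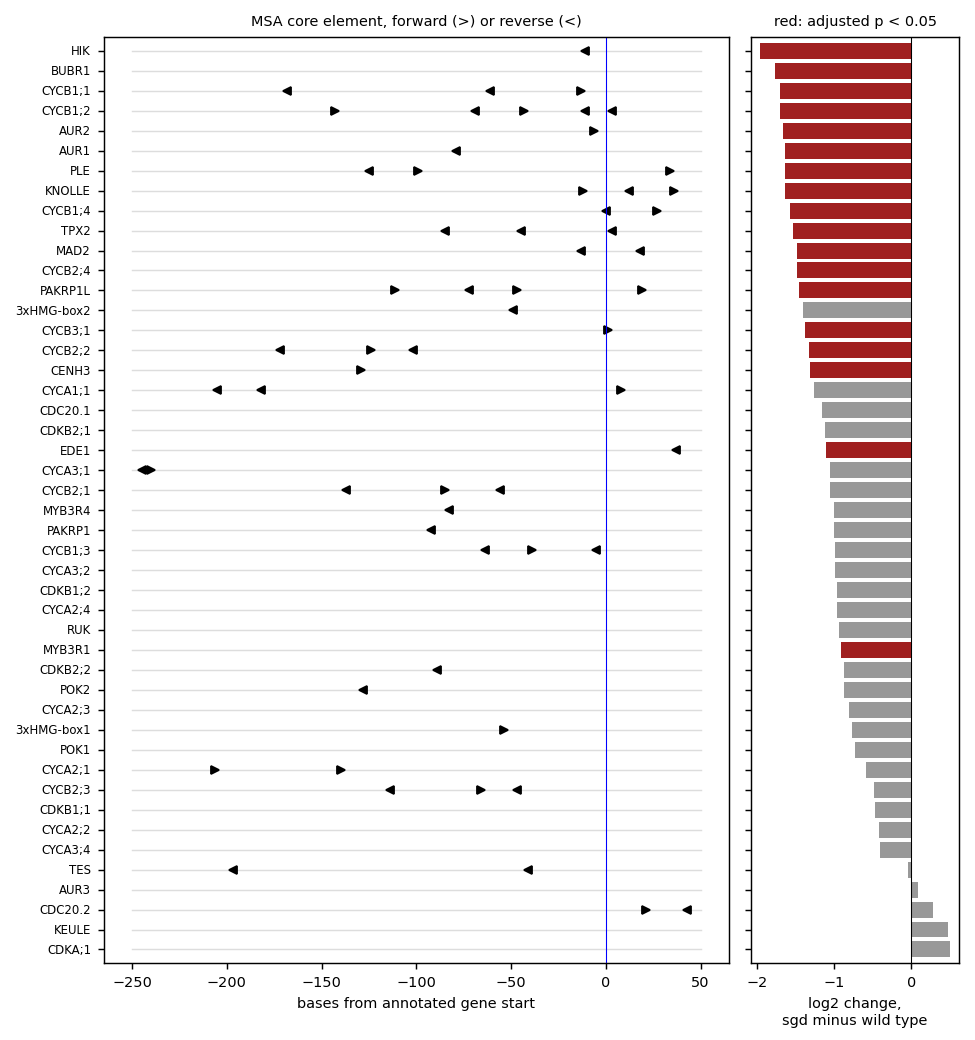
Positions of the MSA core (left; bases from the annotated gene start, triangles pointing right for the gene's strand and left for the other) and change in log2(FPKM + 1), mutant minus wild type (right; red where limma adjusted p was under 0.05), for the 46 genes ordered by change. Of the 18 fallen genes 15 hold a core; at the bottom AUR3, KEULE and CDKA;1 have none, TES has 2 upstream and CDC20.2 has 2 after its start.

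B-type cyclins, the partners of mitotic kinases that are destroyed at anaphase, fell in 6 of 9 genes, against 4.47% of all features. The other 3 did not pass. The median of the 9 was -1.38 on the log2 scale, or -1.50 relative to all features. CYCB1;1 (AT4G37490), often used as a reporter of cells in G2 and mitosis, stood at 31.8, 50.04 and 54.2 FPKM in wild type against 5.31, 21.9 and 17.3 FPKM in the mutant, the values being in the order of libraries 1, 2 and 3 here and below. It fell by 1.71 (SE 0.45, limma adjusted p = 0.0257). CYCB1;2 (AT5G06150), the most abundant of the 9, stood at 49.3, 80.9 and 88.9 FPKM in wild type against 10.11, 33.8 and 26.8 FPKM in the mutant and fell by 1.70 (SE 0.43, limma adjusted p = 0.0208). In both genes every sgd library lay below every wild-type library in these unscaled values, and sgd library 1 was the lowest.

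CYCB1;4 (AT2G26760) stood at 22.3, 35.1 and 35.6 FPKM in wild type against 5.69, 14.8 and 10.2 FPKM in the mutant, with no overlap between groups, and fell by 1.57 (SE 0.35, limma adjusted p = 0.0113). CYCB2;2 (AT4G35620), of a second subfamily of B-type cyclins, stood at 10.2, 14.3 and 17.3 FPKM in wild type against 2.91, 5.41 and 7.0 FPKM in the mutant and fell by 1.32 (SE 0.32, limma adjusted p = 0.0180). CYCB2;4 (AT1G76310) and CYCB3;1 (AT1G16330) also fell, with changes of -1.48 and -1.38 (adjusted p = 0.0270 and 0.0316). CYCB1;3 (AT3G11520) and CYCB2;1 (AT2G17620) were also lower in every sgd library than in any wild-type library, with changes of -0.99 and -1.05 that did not pass (adjusted p = 0.115 and 0.0657, and 0.0413 and 0.00841 with the block). CYCB2;3 (AT1G20610) differed least among the 9: it stood at 24.4, 38.3 and 39.2 FPKM in wild type against 14.5, 29.0 and 30.8 FPKM in the mutant, its groups overlapped, and its change of -0.48 (SE 0.34, limma adjusted p = 0.402) passed with the block (adjusted p = 0.0310) and with median-ratio scaling (adjusted p = 0.0188). Among the fallen B-type genes all but CYCB1;4 were no longer called with no filter or when wild-type library 2 or 3 was left out, with adjusted p up to 0.0920. CYCB1;1, CYCB2;4 and CYCB3;1 were also lost when wild-type library 1 was left out.

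A-type cyclins, which act from S phase into early mitosis, fell in none of 8 genes by the same test, although 5 of the 8 had no overlap between groups and all 8 had negative changes. At an unadjusted p under 0.05, 4 of the 8 were lower, against 8.82% of all features. With the replicate block 4 fell, against 14.3% of all features. CYCA1;1 (AT1G44110), the member nearest to mitosis in its timing, stood at 21.5, 30.2 and 34.3 FPKM in wild type against 4.86, 20.4 and 13.4 FPKM in the mutant, a change of -1.26 (SE 0.43, limma adjusted p = 0.0702), and with the block adjusted p = 0.0260. CYCA2;3 (AT1G15570), which with CDKB1 restrains the switch from division to endoreduplication, was the most abundant A-type gene. It stood at 41.9, 49.9 and 51.5 FPKM in wild type against 12.9, 40.6 and 35.9 FPKM in the mutant, a change of -0.81 (SE 0.40, limma adjusted p = 0.205), and sgd library 1 lay far below the other sgd libraries. With the block its adjusted p was 0.0802 and with median-ratio scaling 0.0353. CYCA2;4 (AT1G80370) showed a change of -0.96 (SE 0.35, limma adjusted p = 0.0881), with 0.0202 in the blocked fit.

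The CYCA3 genes, whose transcripts appear from the start of S phase, did not pass either. CYCA3;1 (AT5G43080) and CYCA3;2 (AT1G47210) had changes of -1.05 and -0.99 (adjusted p = 0.0956 and 0.1003, and 0.0266 and 0.0225 with the block). CYCA3;4 (AT1G47230) stood at 21.8, 34.3 and 36.5 FPKM in wild type against 13.6, 29.8 and 27.7 FPKM in the mutant, its groups overlapped, and its change was -0.41 (SE 0.35, limma adjusted p = 0.493), with adjusted p = 0.0531 under the block and 0.0347 under median-ratio scaling. CYCA2;1 (AT5G25380) was the lowest of the 46 genes, at 0.96, 1.67 and 2.19 FPKM in wild type against 0.62, 1.12 and 0.44 FPKM in the mutant. By the estimated depth its 0.44 FPKM in sgd library 3 comes from about 8.98 fragments, and its change of -0.59 (SE 0.33, limma adjusted p = 0.269) rests on the lowest counts of all 46 genes, with overlapping groups. Every other gene rested on an estimated 76.1 fragments or more in each library. CYCA2;2 (AT5G11300) ranged over 2.87 to 7.0 FPKM in wild type and 2.44 to 4.16 FPKM in sgd, with overlap.

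Among the 5 kinase genes none passed, 4 had negative changes and 1 a positive one. CDKA;1 (AT3G48750), the kinase that acts throughout the cell cycle and has the same role as yeast Cdc2, stood at 29.7, 47.6 and 46.6 FPKM in wild type against 46.5, 62.1 and 66.5 FPKM in the mutant. It was higher in sgd in all 3 same-numbered pairs, but the groups overlapped at their edges and the change of 0.50 (SE 0.30, limma adjusted p = 0.299) did not pass. With the block it rose (limma adjusted p = 0.0175), and so it did with median-ratio scaling (limma adjusted p = 0.0224). The plant-specific CDKB kinases, made from S phase to mitosis, all had negative changes. CDKB2;1 (AT1G76540), expressed in G2 and mitosis, stood at 60.8, 92.1 and 89.7 FPKM in wild type against 19.1, 56.3 and 43.0 FPKM in the mutant, a change of -1.12 (SE 0.40, limma adjusted p = 0.0791) with no overlap between groups, and fell with the block (adjusted p = 0.0148). CDKB2;2 (AT1G20930) and CDKB1;2 (AT2G38620) had changes of -0.87 and -0.97 (adjusted p = 0.152 and 0.127, and 0.0291 and 0.0262 with the block). CDKB1;1 (AT3G54180), the partner of CYCA2;3, differed less, at 24.8, 36.0 and 38.4 FPKM in wild type against 14.1, 30.7 and 28.6 FPKM in the mutant, a change of -0.47 (SE 0.34, limma adjusted p = 0.406) that passed with the block (adjusted p = 0.0492).

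Of both MYB3R genes among the 46, 1 fell, against 4.47% of all features. MYB3R1 (AT4G32730), which can activate or repress mitotic genes, stood at 17.4, 20.11 and 22.6 FPKM in wild type against 6.90, 12.7 and 11.6 FPKM in the mutant and fell by 0.92 (SE 0.28, limma adjusted p = 0.0473). That call was lost in 8 of 19 alternatives, among them those without any single library other than sgd library 2, with adjusted p up to 0.179. MYB3R4 (AT5G11510), an activator of mitotic genes, stood at 18.8, 22.3 and 26.0 FPKM in wild type against 5.65, 14.7 and 13.8 FPKM in the mutant, a change of -1.004 (SE 0.35, limma adjusted p = 0.0726), with no overlap and adjusted p = 0.0242 in the blocked fit. MYB3R3 and MYB3R5, relatives that repress mitotic genes outside division, had changes of 0.10 and 0.31 (adjusted p = 0.846 and 0.438), and MYB3R3 turned to -0.023 with median-ratio scaling.

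Of the 5 aurora and spindle genes 4 fell, against 4.47% of all features, and AUR3 did not pass. AUR1 (AT4G32830) and AUR2 (AT2G25880), the alpha auroras of the spindle and the forming cell plate, both fell. AUR1 stood at 26.1, 38.1 and 44.0 FPKM in wild type against 6.39, 12.6 and 14.7 FPKM in the mutant and fell by 1.64 (SE 0.34, limma adjusted p = 0.00804). AUR2 stood at 20.6, 33.2 and 38.4 FPKM in wild type against 4.71, 12.7 and 10.6 FPKM in the mutant and fell by 1.67 (SE 0.37, limma adjusted p = 0.0116). Every sgd value lay below every wild-type value in both genes. AUR3 (AT2G45490), the beta aurora of the centromeres, stood at 14.4, 21.5 and 21.1 FPKM in wild type against 15.3, 23.8 and 21.5 FPKM in the mutant, with overlapping groups. Its change was 0.084 (SE 0.28, limma adjusted p = 0.888), and it turned to -0.048 with median-ratio scaling, so no direction can be given for it.

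TPX2 (AT1G03780), which nucleates spindle microtubules and activates aurora kinase, stood at 39.6, 42.7 and 44.6 FPKM in wild type against 8.27, 19.9 and 16.1 FPKM in the mutant and fell by 1.54 (SE 0.32, limma adjusted p = 0.00856). EDE1 (AT2G44190), a microtubule-associated protein of the spindle and phragmoplast first known from endosperm, stood at 8.06, 9.66 and 11.3 FPKM in wild type against 2.57, 4.58 and 4.91 FPKM in the mutant and fell by 1.11 (SE 0.28, limma adjusted p = 0.0219). Among genes of the chromosomes, CENH3 (AT1G01370), the histone variant that marks centromeres, stood at 25.1, 47.4 and 41.5 FPKM in wild type against 8.02, 20.09 and 17.2 FPKM in the mutant and fell by 1.32 (SE 0.37, limma adjusted p = 0.0339). EDE1 and CENH3 were not called with no filter or when wild-type library 2 or 3 was left out, and CENH3 also when sgd library 3 was, with adjusted p up to 0.107 and 0.117. 3xHMG-box2 (AT4G23800), whose product binds condensed chromosomes, had the highest level of all 46 genes, at 221, 382 and 386 FPKM in wild type against 50.9, 205 and 166 FPKM in the mutant. Its change was -1.40 (SE 0.52, limma adjusted p = 0.0931) with no overlap between groups, and with the block it fell (adjusted p = 0.0160). Its relative 3xHMG-box1 (AT4G11080) had a change of -0.76 (SE 0.38, limma adjusted p = 0.209), and 0.0484 in the blocked fit.

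**Figure D3:**
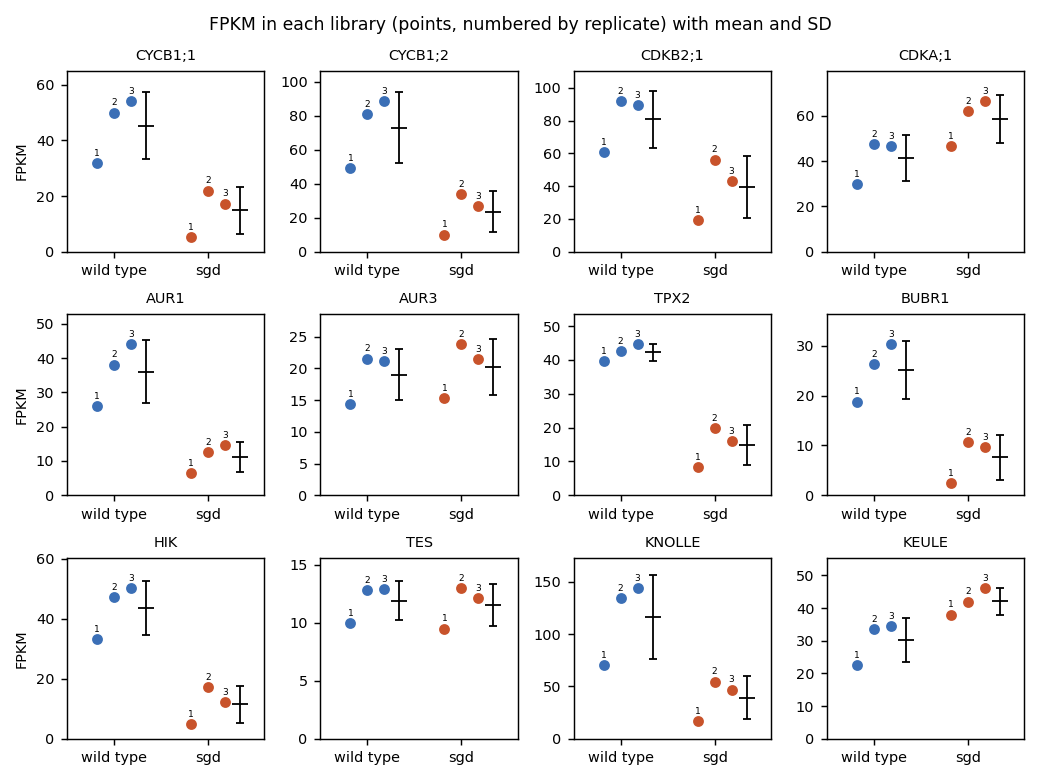
FPKM of 12 mitotic genes in each library (points, numbered by replicate; blue wild type, orange sgd), with the mean and SD of 3 libraries beside them. CYCB1;1, CYCB1;2, CDKB2;1, AUR1, TPX2, BUBR1, HIK and KNOLLE lie lower in every sgd library than in any wild-type library, while CDKA;1, AUR3 and TES overlap and KEULE lies higher.

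Both checkpoint genes fell, against 4.47% of all features. BUBR1 (AT2G33560), a protein of the spindle checkpoint, stood at 18.8, 26.4 and 30.3 FPKM in wild type against 2.38, 10.7 and 9.70 FPKM in the mutant and fell by 1.78 (SE 0.44, limma adjusted p = 0.0199). MAD2 (AT3G25980), which binds CDC20 at unattached kinetochores, stood at 46.3, 82.2 and 89.5 FPKM in wild type against 11.2, 36.3 and 34.2 FPKM in the mutant and fell by 1.49 (SE 0.45, limma adjusted p = 0.0438). Neither passed with no filter or when wild-type library 1 was left out, nor did MAD2 when wild-type library 2 or 3 was, with adjusted p up to 0.0666 and 0.112. CDC20.1 (AT4G33270) stood at 98.2, 139 and 154 FPKM in wild type against 30.9, 74.8 and 78.9 FPKM in the mutant, a change of -1.16 (SE 0.40, limma adjusted p = 0.0708), with no overlap between groups and adjusted p = 0.0116 in the blocked fit. CDC20.2 (AT4G33260), a neighbouring copy, stood at 52.6, 68.1 and 76.6 FPKM in wild type against 57.7, 84.5 and 103 FPKM in the mutant, a change of 0.29 (SE 0.32, limma adjusted p = 0.615). The coding sequences of both are 97.5% identical, so how reads that match both were shared between them is uncertain. Their summed FPKM was 151, 207 and 231 in wild type and 88.6, 159 and 182 in sgd, with overlapping groups and p = 0.3 in an exact two-sided permutation test. The next most alike of the 24 pairs compared were CDKB2;1 and CDKB2;2, at 86.6% identity.

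Genes of the phragmoplast and cell plate held the largest fall of the 46 genes, with 4 of 10 fallen, against 4.47% of all features. TES and KEULE were among the 6 that did not pass. HIK (AT1G18370), a kinesin that activates the kinase cascade by which the phragmoplast expands, stood at 33.2, 47.2 and 50.3 FPKM in wild type against 4.96, 17.2 and 12.3 FPKM in the mutant. It fell by 1.96 (SE 0.39, limma adjusted p = 0.00710), more than any other of the 46 genes on this scale. Its close relative TES (AT3G43210), known for cytokinesis after male meiosis, stood at 9.96, 12.8 and 12.9 FPKM in wild type against 9.51, 13.0 and 12.2 FPKM in the mutant. The TES groups overlapped and its change was -0.042 (SE 0.25, limma adjusted p = 0.941), which turned to 0.081 without sgd library 1. PLE (AT5G51600), which bundles phragmoplast microtubules where they meet, stood at 30.6, 46.9 and 48.4 FPKM in wild type against 6.70, 18.3 and 15.7 FPKM in the mutant and fell by 1.64 (SE 0.37, limma adjusted p = 0.0125).

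The kinesin-12 genes of the phragmoplast midzone were PAKRP1L (AT3G23670), which fell by 1.45 (SE 0.37, limma adjusted p = 0.0233), and PAKRP1 (AT4G14150), with a change of -0.997 (SE 0.32, limma adjusted p = 0.0551). PAKRP1L stood at 17.4, 25.6 and 26.9 FPKM in wild type against 3.74, 11.4 and 10.3 FPKM in the mutant, and PAKRP1 at 10.6, 15.7 and 16.0 FPKM in wild type against 3.85, 8.83 and 7.70 FPKM in the mutant. Neither gene had overlapping groups, and PAKRP1 fell with the block (adjusted p = 0.0101). POK1 (AT3G17360) and POK2 (AT3G19050), which guide the phragmoplast to the division site, had changes of -0.73 and -0.87 (adjusted p = 0.132 and 0.116, and 0.0531 and 0.0534 with the block). With median-ratio scaling both fell (adjusted p = 0.0150 and 0.0179). RUK (AT5G18700), a microtubule-associated protein of the phragmoplast, had a change of -0.94 (SE 0.31, limma adjusted p = 0.0651) and fell with the block (adjusted p = 0.0113).

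KNOLLE (AT1G08560), the syntaxin made for cell plate fusion, stood at 70.5, 134 and 144 FPKM in wild type against 16.5, 54.6 and 47.0 FPKM in the mutant and fell by 1.64 (SE 0.46, limma adjusted p = 0.0341). Its binding partner KEULE (AT1G12360), a Sec1/Munc18 protein with roles in other secretion too, stood at 22.6, 33.5 and 34.6 FPKM in wild type against 38.0, 42.0 and 46.2 FPKM in the mutant. Every sgd value of KEULE lay above every wild-type value, but the change of 0.48 (SE 0.27, limma adjusted p = 0.275) did not pass. With the block KEULE rose (adjusted p = 0.0313), and with median-ratio scaling it did not pass (adjusted p = 0.0666). KNOLLE and PAKRP1L did not pass with no filter or when wild-type library 2 or 3 was left out, with adjusted p up to 0.0891 and 0.0677, and leaving out wild-type library 1 also ended the call of PAKRP1L.

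Ratios between mitotic genes of 1 library do not depend on a scaling factor applied to a whole library. The 7 ratios were chosen after the values were seen, as genes that fell or had negative changes over relatives or partners whose changes were near 0 or positive. That they part the genotypes thus follows from this choice and adds no support to the changes above. CDC20.1 over CDC20.2 was 1.87, 2.04 and 2.01 in wild type and 0.536, 0.885 and 0.764 in sgd, a ratio to which the sharing of reads between near-identical copies also applies. HIK over TES was 3.33, 3.68 and 3.89 in wild type and 0.522, 1.32 and 1.01 in sgd, and KNOLLE over KEULE was 3.12, 4.01 and 4.17 in wild type and 0.435, 1.30 and 1.02 in sgd. For AUR1 over AUR3 the ratio was 1.81, 1.77 and 2.09 in wild type and 0.416, 0.53 and 0.684 in sgd. CDKB2;1 over CDKA;1 was 2.05, 1.94 and 1.92 in wild type and 0.411, 0.906 and 0.646 in sgd, and CYCB1;1 over CDKA;1 was 1.07, 1.05 and 1.16 in wild type and 0.114, 0.353 and 0.26 in sgd. AUR2 over AUR3 was 1.43, 1.54 and 1.82 in wild type and 0.307, 0.536 and 0.494 in sgd. In all 7 the groups did not overlap, the mean log2 ratio of sgd minus that of wild type ran from -1.47 to -2.32, and the exact two-sided permutation test gave p = 0.1 (adjusted p = 0.1 over the 7), the smallest that 3 against 3 allows, so that none could pass 0.05. The SD of the log2 ratios was smaller in wild type than in sgd in each case, and sgd library 1 had the lowest ratio of all in each.

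**Figure D4:**
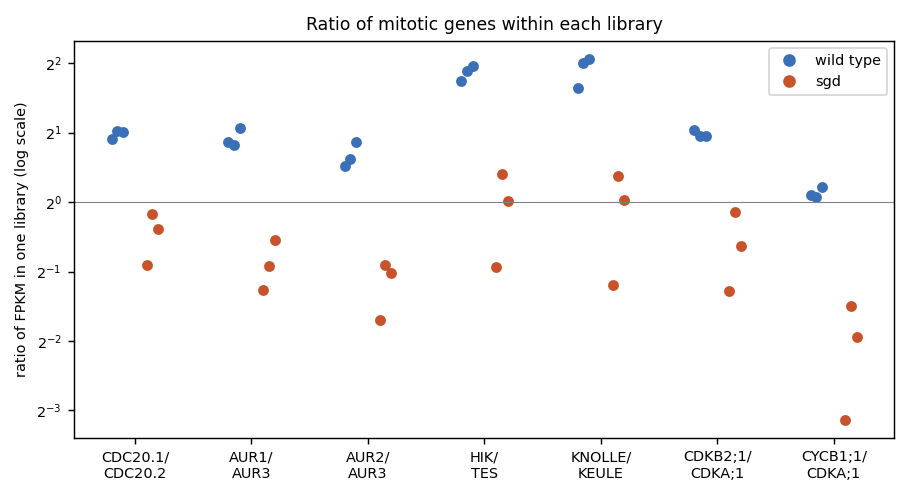
Ratio of the FPKM of 2 mitotic genes within each library on a log scale of base 2, for 7 ratios, with wild type in blue and sgd in orange (3 libraries each). In each ratio the 3 wild-type points lie above the 3 sgd points.

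The size of the change differed between same-numbered pairs of libraries. The median change of the 46 genes was -1.56 in log2(FPKM + 1) between the libraries numbered 1, -0.66 between those numbered 2 and -0.96 between those numbered 3, while all features had medians of 0.099, 0.14 and 0.12. In each of the 3 pairs the same 41 genes were lower in sgd, against 26.9% of all features. Summed over the 46 genes, FPKM was 1371, 2073 and 2196 in wild type and 517, 1247 and 1147 in sgd, or 0.259%, 0.276% and 0.284% of all summed FPKM in wild type and 0.0922%, 0.157% and 0.144% in sgd. The wild-type and sgd ranges did not overlap on either scale. Without both libraries numbered 1, 40 of the 46 genes fell and 2 rose, against 17.5% and 32.2% of all features, and the median of the 46 was -0.82 (-0.96 relative to all features).

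**Figure D5:**
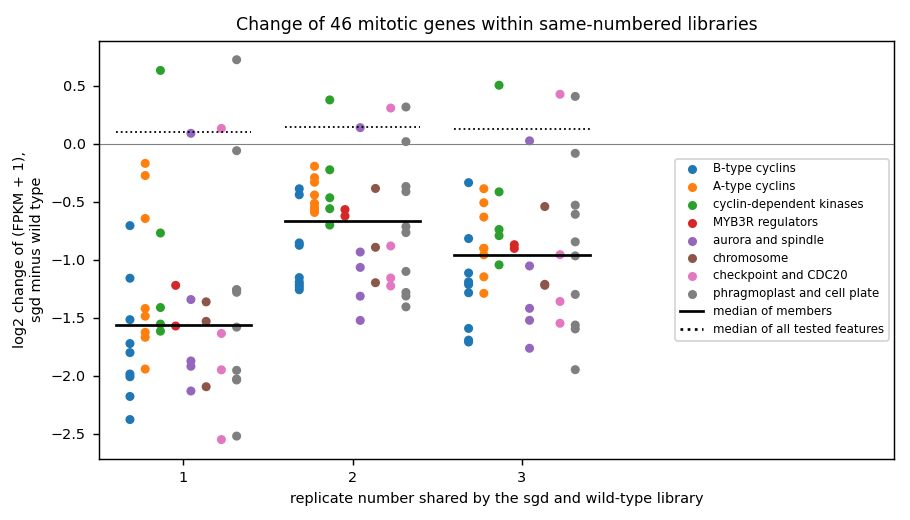
Log2 change of (FPKM + 1), sgd minus wild type, between libraries of the same number, for the 46 genes coloured by role; solid lines give the median of the 46 and dotted lines that of all tested features. Most genes lie below 0 in each pair, furthest between the libraries numbered 1.

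Of 99 other cell division genes, listed by role, 98 were tested, 8 fell, none rose and 90 did not pass, and 30 were lower at an unadjusted p under 0.05, against 8.82% of all features. With the block 45 fell and 3 rose, against 14.3% and 26.5% of all features (4.47% and 13.3% without it). Their median change was -0.43 on the log2 scale, or -0.56 relative to all features, against -1.15 for the 46. The 8 falls lay in 5 of the 9 lists. Of 6 spindle kinesin genes 3 fell. ATK5 (AT4G05190) fell by 1.599 (SE 0.41, limma adjusted p = 0.0220), and ATK1 (AT4G21270) and AT2G28620 had changes of -1.28 and -1.51 (adjusted p = 0.0388 and 0.0212). ATK1 and ATK5 are minus-end-directed kinesins that focus spindle poles, and ATK5 stood at 22.9, 33.1 and 35.7 FPKM in wild type against 4.15, 15.4 and 11.8 FPKM in the mutant. With 1 library left out or no filter, adjusted p for these kinesin genes reached 0.0654, 0.103 and 0.0605.

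Of 15 other cytokinesis genes 2 fell, against 4.47% of all features. TAN (AT3G05330), which marks the site of division, stood at 13.8, 19.1 and 20.24 FPKM in wild type against 6.09, 7.91 and 7.19 FPKM in the mutant and fell by 1.203 (SE 0.25, limma adjusted p = 0.00894). ANP3 (AT3G06030), a kinase of the cascade that HIK activates, fell by 1.12 (SE 0.34, limma adjusted p = 0.0459), and MKK6 (AT5G56580), the next kinase in that cascade, showed a change of -1.18 (SE 0.39, limma adjusted p = 0.0605). Of 7 kinase regulators CDKD1;1 (AT1G73690), of the family that activates cyclin-dependent kinases, stood at 3.84, 5.40 and 7.06 FPKM in wild type against 0.57, 1.6 and 1.93 FPKM in the mutant and fell by 1.46 (SE 0.33, limma adjusted p = 0.0130). CKS2 and CKS1, small kinase-binding proteins, had changes of -1.24 and -0.65 (adjusted p = 0.0785 and 0.162). Leaving out wild-type library 2 or 3 ended the call of TAN, leaving out wild-type library 3 that of CDKD1;1, and ANP3 was lost in 7 of 19 alternatives, with adjusted p up to 0.0569, 0.0671 and 0.142.

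Of 9 G1/S regulators 1 fell, against 4.47% of all features. DEL1 (AT3G48160), an E2F relative that restrains endoreduplication, fell by 1.22 (SE 0.35, limma adjusted p = 0.0374). DEL3 and E2FA had changes of -0.85 and -0.71 (adjusted p = 0.113 and 0.212). Of 14 cohesin and condensin genes 1 fell: the condensin gene CAP-C (AT5G48600) fell by 1.02 (SE 0.32, limma adjusted p = 0.0492). SYN3, a cohesin gene, and AT3G57060 had changes of -1.06 and -0.86 (adjusted p = 0.0592 and 0.101). DEL1 lost its call in 5 of 19 alternatives and the condensin gene in 8, with adjusted p up to 0.128 and 0.154.

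None of 17 genes of the anaphase-promoting complex and its regulators passed, nor did any of 14 other checkpoint and kinetochore genes, 13 augmin and gamma-tubulin genes or 3 tested genes related to the MYB3R regulators. With the block 5, 8, 3 and 1 of these fell, and 3 augmin and gamma-tubulin genes rose, against 14.3% fallen and 26.5% risen of all features. CCS52B (AT5G13840), an activator of the complex that peaks in mitosis, stood at 62.1, 102 and 104 FPKM in wild type against 19.6, 52.0 and 50.6 FPKM in the mutant, a change of -1.200 (SE 0.41, limma adjusted p = 0.0674). UVI4, an inhibitor of the complex, and the subunit gene APC6 had changes of -0.94 and -1.01 (adjusted p = 0.0727 and 0.0785). BUB3.2, CENP-C and AT1G61000 had changes of -1.05, -0.96 and -0.70 (adjusted p = 0.0823, 0.0923 and 0.117). MOR1 (AT2G35630), a microtubule-binding protein, stood at 37.0, 41.2 and 42.2 FPKM in wild type against 55.0, 68.7 and 73.0 FPKM in the mutant, a change of 0.69 (SE 0.26, limma adjusted p = 0.103), and TUBG1 and AUG6 had changes of -0.92 and 0.56 (adjusted p = 0.115 and 0.228). TSO1, of the CXC family, had a change of -0.59 (adjusted p = 0.248), and MYB3R2, at no more than 0.35 FPKM in any library, was not tested. With the block 14 of the named genes that had not passed fell, namely CCS52B, UVI4, APC6, CKS2, CKS1, BUB3.2, CENP-C, AT1G61000, MKK6, TUBG1, SYN3, AT3G57060, DEL3 and TSO1, and MOR1 and AUG6 rose, with limma adjusted p from 0.00587 for TUBG1 to 0.0312 for TSO1.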

How the data were processed

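Poly(A) RNA of wild-type and sgd ovules was sequenced by the authors in 3 libraries each. The deposited values are FPKM per feature with 2 decimals, per the file headers. The submitters' processing notes name the build TAIR10 and, without saying what each did, DESeq2, RSEM, TopHat2 2.1.1, cutadapt 1.15 and CASAVA. Strand use and annotation are not given in the sources used here. Depth was estimated from the FPKM steps that 1 fragment gives in genes of known length, with a fitted fragment length, and 89.6% to 94.1% of the values used lay within 0.2 of a whole fragment, so depths are estimates.

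Features with a mean of at least 1 FPKM entered lmFit and eBayes with a trend (limma 3.58.1, R 4.3.3) on log2(FPKM + 1), sgd minus wild type, a scale that understates changes of low genes. The fit used genotype alone and all 6 libraries, and was tested on simulated data. Numbers in the labels may pair libraries: deviations from group means correlated at 0.52, 0.24 and 0.38 between libraries numbered 1, 2 and 3, so the blocked value is given where it changes a call. Libraries 2 and 3 correlated as much crosswise, at 0.35 and 0.43. Alternatives were a filter at 5 FPKM or none, pseudocounts of 0.1 and 0.01, 3 other scalings, the block, both together, other eBayes settings, array weights, and libraries left out. All 46 genes are accounted for, and of each of the 9 other lists the 3 genes with the smallest p are named. Members, lists and alternatives were chosen with earlier results of these data known. Names and sequences came from RefSeq TAIR10.1, which matched 98.1% of identifiers. Coding identity is from global alignments of the longest coding sequences.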

Additional observations from a re-analysis of the deposited data

How the results depend on the processing

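The fallen mitotic genes, 18 as reported, numbered 6 with no filter, 37 after rescaling to equal totals, 39 with median-ratio scaling, 40 with quantile normalization, 35 with the replicate block, 38 with block and median-ratio scaling, 41 with array weights, whose estimate did not converge, and 40 without both libraries numbered 1. Risen ones, 0 as reported, numbered 2, 1, 1, 2, 1, 3 and 2 in the same settings after the first. The 8 other division genes that fell became 2, 51, 60, 63, 45, 57, 60 and 49, and the 0 risen became 2, 2, 2, 3, 2, 12 and 5 after the first. Leaving out 1 library gave 7 to 28 fallen and 0 to 0 risen mitotic genes, and 0 to 19 fallen and 0 to 1 risen other genes; the 0 came without wild-type library 3 (limma, 13 at an unadjusted p under 0.05). Over all features 2.1% to 5.68% fell and 8.4% to 19.5% rose with 1 library left out. The replicate block ended none of the 18 calls and none of the 8. Pseudocounts, the stricter filter and eBayes settings kept all counts within 1.5 times. Single genes near 0 changed sign. AUR3 gave -0.048 with median-ratio scaling, also with the block, -0.097 with quantile normalization, and -0.095 to 0.26 when 1 library was left out. TES ran from -0.16 to 0.081 with 1 library left out. MYB3R3 gave -0.023 with median-ratio scaling, also with the block, -0.092 with quantile normalization, -0.034 without both libraries numbered 1 and -0.047 to 0.20 with 1 library left out. The cause was not tested. Of 871 values of single mitotic genes under the alternatives, 648 kept direction and call, 46 lost a call, 169 gained one and 8 changed sign.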

Other observations

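The order of levels among the 46 mitotic genes differed between genotypes. By mean FPKM, which is per length, CDC20.2 ranked 7 in wild type and 2 in sgd, CDKA;1 ranked 13 and 4, and KEULE ranked 23 and 5. HIK ranked 10 and 28, AUR1 16 and 30, and CYCB1;1 9 and 19. 3xHMG-box2 was first and CYCA2;1 last in both. Mean levels were 58.4 ± 10.5 FPKM for CDKA;1, 42.0 ± 4.10 FPKM for KEULE and 11.5 ± 6.16 FPKM for HIK in sgd (SD, n = 3). These ranks are a description with no test.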
